A study of Mus musculus with 20 samples.

Results

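The miR-26 family on these arrays was represented by 2 mature microRNAs (miRNAs), mmu-miR-26a-5p and mmu-miR-26b-5p, of 1881 mature mouse miRNAs. They were chosen by name, every array feature whose systematic name is that of a member, and both were measured on all 20 arrays. The samples were ascending aorta carrying an atherosclerotic lesion, from male mice of 1 double knockout genotype, given in the labels as Apobtm2Sgy/Ldltm1Her. That genotype was shared by every group, so no group without the knockouts was compared. Week 0 on chow held 2 arrays, and chow at weeks 6, 18 and 30 and high fat diet at weeks 6, 18 and 30 held 3 arrays each. The age label repeats the week of the treatment, and the age of the mice in any other sense is not given in the sources used here. Nothing in the labels says whether a sample was 1 mouse or a pool, so the p-values below rest on variation among samples that may be partly technical.

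miRNAs guide the silencing machinery to messenger RNAs, mainly through the seed, bases 2 to 8 of the mature strand. The miR-26 family is expressed in most tissues and is known for lowering EZH2, a histone methyltransferase, and SMAD1 and SMAD4, which carry BMP and TGF-beta signals. In the vessel wall miR-26a is known as a regulator of smooth muscle cell differentiation and of endothelial growth. Its hairpins lie within genes of the CTDSP phosphatases, which act on RNA polymerase II and RB1, and MYC is known to lower its transcription.

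The mature strands are shown because the members share a seed and differ by few bases, which sets what the arrays can tell apart. Sequences are from RefSeq with assembly GRCm38.p6, written 5′ to 3′, with the seed in capitals.
miR-26a-5p: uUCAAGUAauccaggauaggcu
miR-26b-5p: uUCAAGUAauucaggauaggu
The seed UCAAGUA was carried by 2 of 1679 mature mouse names in that table, and these were the members. Counted from the 5′ end of miR-26a-5p, the members differed by C11U and C21U, both outside the seed. They were identical at 19 of 21 aligned positions, and miR-26a-5p is 22 bases long against 21.

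Mature miR-26a-5p comes from 2 hairpins and miR-26b-5p from 1, shown here with both arms in capitals.
Mir26a-1: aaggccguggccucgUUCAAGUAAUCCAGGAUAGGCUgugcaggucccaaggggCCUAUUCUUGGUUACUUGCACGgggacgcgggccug
Mir26a-2: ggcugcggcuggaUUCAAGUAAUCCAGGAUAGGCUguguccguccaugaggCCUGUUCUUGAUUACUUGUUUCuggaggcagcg
Mir26b: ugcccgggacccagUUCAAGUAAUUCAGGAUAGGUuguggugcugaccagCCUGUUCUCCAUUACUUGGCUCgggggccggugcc
In the RefSeq gene table Mir26a-1 lies within Ctdspl on chromosome 9, Mir26a-2 within Ctdsp2 on chromosome 10 and Mir26b within Ctdsp1 on chromosome 1. The 5p arm is the same in both miR-26a hairpins, so the arrays read their sum. The files place the longer miR-26a-5p probe at chr9:118940935-118940950 and chr10:126432605-126432620, and the longer miR-26b-5p probe at chr1:74440900-74440918, in build mm9 with no strand given. The last span is as the files give it and is 1 base shorter than that probe.

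Each member was read by 2 probes, DNA complementary to the miRNA from its 3′ end inward, shown because their lengths differ between the members. Capitals mark the bases that pair with the 2 positions at which the members differ.
miR-26a-5p, shorter probe: aGcctatcctgGatt
miR-26a-5p, longer probe: aGcctatcctgGatta
miR-26b-5p, shorter probe: AcctatcctgAattacttg
miR-26b-5p, longer probe: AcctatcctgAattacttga
The miR-26a-5p probes are 15 and 16 bases long and cover bases 8 to 22 and 7 to 22 of the miRNA. Those of miR-26b-5p are 19 and 20 bases long and cover bases 3 to 21 and 2 to 21. Each miR-26a-5p probe has 3 bases with no match in miR-26b-5p, and each miR-26b-5p probe has 2 with no match in miR-26a-5p, so each may take up some of the other member. Because the probes differ, a level of one member was not set against a level of the other, and only the change of their difference between groups was read.

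Several arrays stood apart before any comparison. Between 316 and 742 miRNAs were detected per array, and 4 arrays had 355 or fewer: replicate 1 of week 18 chow with 316, replicate 3 of week 18 high fat with 328, replicate 3 of week 6 high fat with 345 and replicate 1 of week 30 high fat with 355. Negative control spots had an SD of 22.3 on the second of these and no more than 2.53 elsewhere. Over the 192 miRNAs detected on every array, pairs of arrays from a group typically differed with an SD of 1.02 (median, log2). Replicates 1 and 2 of week 6 chow differed by only 0.28 and replicates 2 and 3 of week 30 high fat by 0.18. Across groups, replicate 3 of week 18 high fat came within 0.19 of replicate 2 of week 30 high fat. The arrays lay on 3 slides: weeks 0 and 6 on the first, weeks 18 and 30 chow with week 18 high fat replicates 1 and 2 on the second, and week 18 high fat replicate 3 with all of week 30 high fat on the third. The slide position in the description differed from that in the file for 8 arrays, all of weeks 18 and 30, and for 2 of week 18 it belonged to the other diet.

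Markers of the arterial wall and of several other tissues were measured. The smooth muscle markers miR-143-3p and miR-145a-5p were detected on every array, and so was 1 of 2 endothelial markers, 2 of 4 leukocyte markers, 1 of 2 red cell markers and 2 of 5 striated muscle markers. The 6 epithelial markers, miRNAs of the miR-200 group with miR-203-3p and miR-205-5p, were each detected on some arrays and none on every array, and their summed log2 level ran from 5.63 to 11.19. In week 18 chow alone it spanned that whole range, and in week 30 high fat it lay between 5.98 and 6.15. That of the striated muscle markers ran from 8.18 to 13.32. The neuronal and liver markers were not detected on every array of the series, and their summed log2 levels reached at most 4.34 and 6.00.

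Both members were well above background on all 20 arrays. Levels are given as log2 of the processed intensity after scaling, in which the 75th percentile of the 192 miRNAs detected on every array was made equal between arrays. Before scaling, the processed intensity of miR-26a-5p ran from 447 to 4074 and that of miR-26b-5p from 21.4 to 1086. Over 12 to 15 usable spots per probe, the coefficient of variation was 1.17% to 6.95% for miR-26a-5p and 1.76% to 21.96% for miR-26b-5p.

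miR-26a-5p was at 11.36 and 11.58 in the week 0 chow arrays. On chow it was at 11.18, 11.22 and 10.78 at week 6, at 11.28, 11.02 and 11.34 at week 18, and at 11.08, 10.96 and 10.69 at week 30. The chow groups of weeks 18 and 30 overlapped the chow group before them. On high fat diet it was at 10.54, 11.77 and 11.63 at week 6, at 10.92, 11.42 and 10.30 at week 18, and at 10.42, 10.28 and 10.29 at week 30. Its 3 week 30 high fat levels lay below all 3 of week 30 chow, and week 18 high fat replicate 3 lay in their range.

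miR-26b-5p was at 9.34 and 9.46 in the week 0 chow arrays. On chow it was at 9.34, 9.50 and 8.97 at week 6, at 7.16, 9.25 and 9.44 at week 18, and at 9.26, 9.03 and 9.01 at week 30. One chow array, week 18 replicate 1, lay far below the other chow arrays. On high fat diet miR-26b-5p was at 8.67, 9.93 and 9.27 at week 6, at 8.80, 9.52 and 8.68 at week 18, and at 6.03, 8.59 and 8.41 at week 30. Week 30 high fat replicate 1 was the lowest of the 20 arrays, and the 3 levels of that group again lay below all 3 of week 30 chow.

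**Figure D1:**
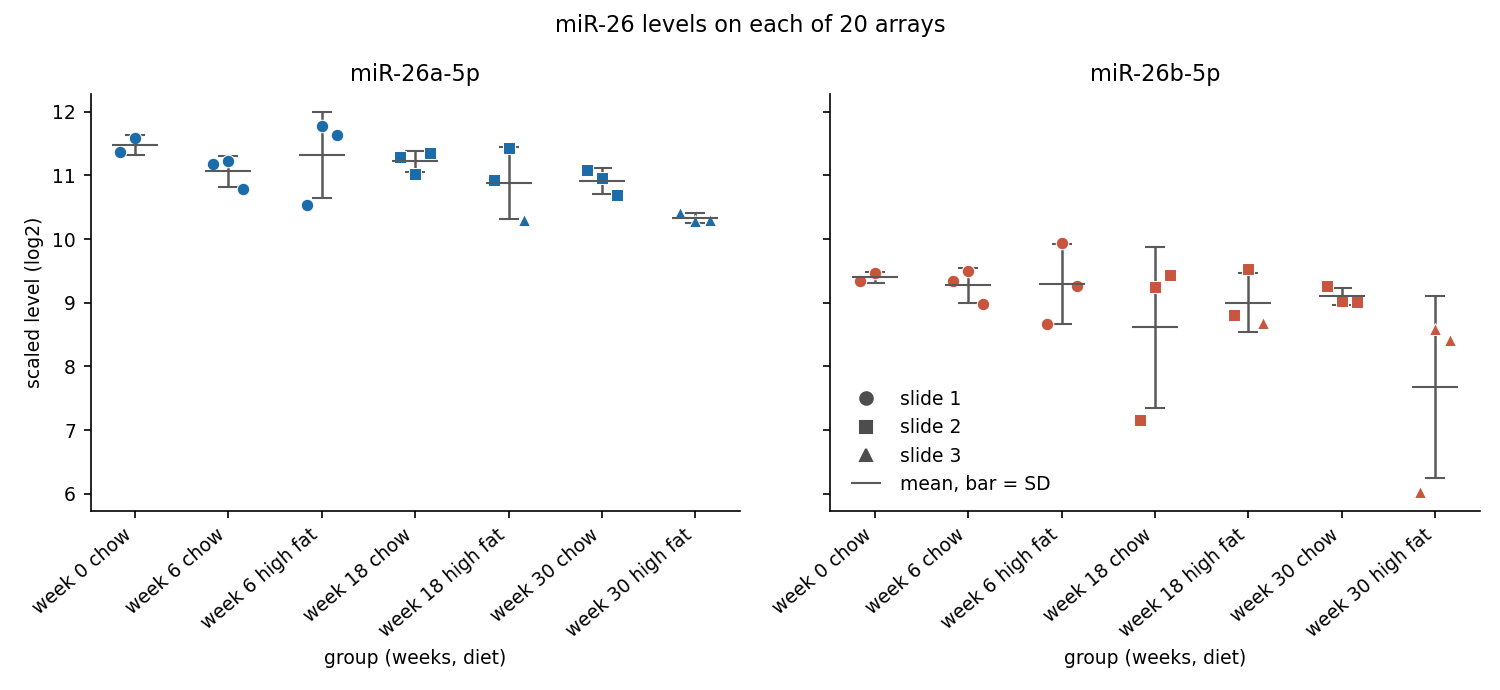
Scaled log2 level of miR-26a-5p (left) and miR-26b-5p (right) on each array, by group. Points are arrays, shaped by slide, and bars give the group mean and SD: the 4 arrays of slide 3 hold the 4 lowest miR-26a-5p levels, 10.28 to 10.42, and 2 arrays stand apart for miR-26b-5p, at 7.16 and 6.03.

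Ordered by group mean, miR-26a-5p was highest in week 0 chow (11.47 ± 0.16, SD, n = 2), then week 6 high fat (11.31 ± 0.67, n = 3), week 18 chow (11.22 ± 0.17), week 6 chow (11.06 ± 0.24), week 30 chow (10.91 ± 0.20), week 18 high fat (10.88 ± 0.56) and week 30 high fat (10.33 ± 0.07). miR-26b-5p was highest in week 0 chow (9.40 ± 0.09, n = 2), then week 6 high fat (9.29 ± 0.63, n = 3), week 6 chow (9.27 ± 0.27), week 30 chow (9.10 ± 0.14), week 18 high fat (9.001 ± 0.46), week 18 chow (8.62 ± 1.26) and week 30 high fat (7.68 ± 1.43). Every pair of neighbours in both orders overlapped in its array values. Week 0 chow and week 30 high fat were the ends of both orders.

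The wider spread of miR-26b-5p over the arrays lay in 2 of them. The SD over 20 arrays was 0.47 for miR-26a-5p, and 18 of the 192 miRNAs detected on every array had a smaller one. For miR-26b-5p it was 0.89, with 122 of 192 smaller, and the median of the 192 was 0.80. The range was 1.49 for miR-26a-5p and 3.90 for miR-26b-5p, against a median of 2.97. Leaving out the arrays at 7.16 and 6.03 for miR-26b-5p, the SD was 0.47 for miR-26a-5p and 0.40 for miR-26b-5p, with 33 and 16 of 192 smaller and a median of 0.65. The ranges over these 18 arrays were 1.49 and 1.52.

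No diet difference of a member passed the test at week 6. High fat minus chow was 0.25 ± 0.39 (SE, log2) for miR-26a-5p, with a 95% interval of -0.58 to 1.08 and a limma adjusted p of 0.935. For miR-26b-5p it was 0.021 ± 0.65, from -1.34 to 1.38, with an adjusted p of 0.995. The miR-26a-5p value was 0.64 without week 6 high fat replicate 1 and 0.020 without replicate 2 of that group. In this comparison 18 of 609 tested miRNAs, 2.96%, passed the threshold, a limma adjusted p under 0.05, and no member was among them. Slide 1 held every array of this comparison.

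At week 18 the members' differences had opposite signs, and neither passed the test. miR-26a-5p was at -0.33 ± 0.39 (-1.16 to 0.50) and miR-26b-5p at 0.38 ± 0.65 (-0.98 to 1.74), with a limma adjusted p of 0.953 for each. Of 609 miRNAs 0%, none, passed by limma, with 7 at an unadjusted p under 0.05. Without week 18 chow replicate 1 the miR-26b-5p difference turned to -0.34, and with arrays placed by their described slide position it was -0.71. Within slide 2, which leaves out week 18 high fat replicate 3, miR-26a-5p was at -0.044 and miR-26b-5p at 0.55.

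Week 30 gave the members' lowest values on high fat diet, and neither difference passed the test. miR-26a-5p was at -0.58 ± 0.39 (-1.41 to 0.25, limma adjusted p = 0.347) and miR-26b-5p at -1.42 ± 0.65 (-2.78 to -0.06, adjusted p = 0.274). The high fat arrays of both members lay below all chow arrays, as did those of 156 of the 609 miRNAs, 25.6%. Of the 609, 0% passed by limma, with 103 at an unadjusted p under 0.05. Without week 30 high fat replicate 1, miR-26b-5p was at -0.60 and miR-26a-5p at -0.62.

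Slide moved with the week 30 comparison. All 3 high fat arrays of week 30 lay on slide 3 and all 3 chow arrays on slide 2, and miR-26a-5p ran from 10.28 to 10.42 on slide 3, from 10.69 to 11.42 on slide 2 and from 10.54 to 11.77 on slide 1. The array of slide 3 from week 18 was at 10.30, against 10.92 and 11.42 for the same group on slide 2. With slide as a block, miR-26a-5p at week 30 turned to 0.29 ± 0.67 and miR-26b-5p was at -0.94 ± 1.19. That block rests on week 18 high fat replicate 3 alone, the array with the high negative control SD that was near identical to a week 30 array, so diet and slide at week 30 cannot be told apart.

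Averaged over weeks 6, 18 and 30, high fat minus chow was -0.22 ± 0.23 for miR-26a-5p (-0.70 to 0.26, limma adjusted p = 0.511) and -0.34 ± 0.37 for miR-26b-5p (-1.12 to 0.45, adjusted p = 0.538). Here too 0% of 609 miRNAs passed by limma, with 97 at an unadjusted p under 0.05. An exact permutation test of the diet labels within weeks, two-sided, gave p = 0.2687 for miR-26a-5p and p = 0.4735 for miR-26b-5p. The mean for miR-26a-5p was -0.092 without week 6 high fat replicate 1 and -0.12 without week 18 high fat replicate 3. That for miR-26b-5p was -0.065 without week 30 high fat replicate 1 and -0.58 without week 18 chow replicate 1. With slide as a block the mean for miR-26a-5p turned to 0.17 ± 0.33. A test of whether the diet difference changed between weeks gave F = 1.17 (limma adjusted p = 0.653) for miR-26a-5p and F = 2.19 (adjusted p = 0.539) for miR-26b-5p, where 6 of 609 miRNAs, 0.985%, passed.

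**Figure D2:**
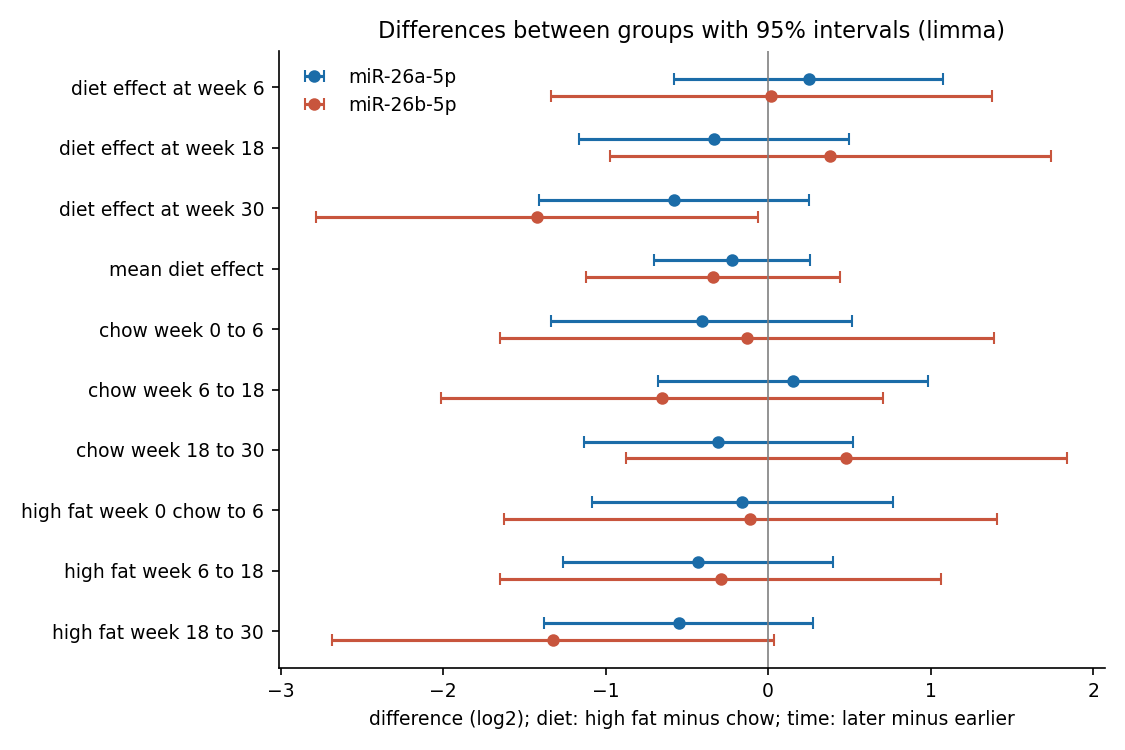
Difference between groups on the log2 scale (horizontal axis) for miR-26a-5p and miR-26b-5p in each comparison, with 95% intervals from limma. All intervals but that of miR-26b-5p at week 30, -2.78 to -0.06, hold 0, and that one did not pass after adjustment over 609 miRNAs.

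On chow, no step in time passed for either member, although the array as a whole had many calls. From week 0 to 6 miR-26a-5p was at -0.41 ± 0.44 (limma adjusted p = 0.645) and miR-26b-5p at -0.13 ± 0.72 (adjusted p = 0.933), where 132 of 609 miRNAs, 21.7%, passed and all of these were higher at week 6. The week 6 levels of miR-26a-5p lay below both week 0 levels, as did those of 75 of the 609, 12.3%. From week 6 to 18 miR-26a-5p was at 0.15 ± 0.39 (adjusted p = 0.811) and miR-26b-5p at -0.65 ± 0.65 (adjusted p = 0.551), where 97 miRNAs, 15.9%, passed and all were lower. From week 18 to 30 the members were at -0.31 ± 0.39 and 0.48 ± 0.65 (adjusted p = 0.991 for each), and 0% passed by limma, with 3 at an unadjusted p under 0.05. Without week 18 chow replicate 1 the 2 steps of miR-26b-5p that use that group turned to 0.074 and -0.25. Weeks 6 and 18 lay on different slides, so that step and slide cannot be told apart.

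Scaling bears on the first chow step. The median difference over the 609 miRNAs was 0.62 from week 0 to 6, so the members lay below the general shift. With the 75th percentile taken over all 1881 miRNAs, miR-26a-5p was at -1.86 with a limma adjusted p of 0.0423. This was the 1 setting under which a member passed, and miR-26b-5p was at -1.58 with a limma adjusted p of 0.13. That percentile takes in undetected miRNAs, and the number detected differed between the groups. It was 425 and 412 on the week 0 arrays and 489, 595 and 518 on those of week 6 chow. The part of this in the value was not tested.

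On high fat diet both members had a negative sign in each step, and no step passed. From week 0 chow to week 6 miR-26a-5p was at -0.16 ± 0.44 (limma adjusted p = 0.917) and miR-26b-5p at -0.11 ± 0.72 (adjusted p = 0.969). From week 6 to 18 they were at -0.43 ± 0.39 (adjusted p = 0.651) and -0.29 ± 0.65 (adjusted p = 0.857), again across slides. The miR-26a-5p value of that step was -0.82 without week 6 high fat replicate 1 and -0.14 without week 18 high fat replicate 3. From week 18 to 30 they were at -0.55 ± 0.39 and -1.32 ± 0.65 (adjusted p = 0.811 for each). In each of these steps 0% of 609 miRNAs passed by limma, with 46, 62 and 19 at an unadjusted p under 0.05. All week 30 levels of miR-26b-5p lay below all of week 18 in the last step, as did those of 27 miRNAs, 4.43%. The nearest levels were 8.68 on week 18 replicate 3 and 8.59 on week 30 replicate 2, a near-identical pair of arrays. Without week 30 high fat replicate 1 that step was -0.50 for miR-26b-5p, and without week 18 high fat replicate 3 it was -1.48 for miR-26b-5p and -0.84 for miR-26a-5p. Within slide 3 the last step was 0.029 for miR-26a-5p and -0.999 for miR-26b-5p. These are values with no error or test, since week 18 is 1 array there, replicate 3, which differed from week 30 replicates 2 and 3 with an SD of only 0.19 and 0.33.

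The difference between the members within an array is free of the scaling between arrays. On 18 arrays miR-26a-5p minus miR-26b-5p lay between 1.63 and 2.36 on the log2 scale, with a median of 1.86. It was 4.12 on the first array of week 18 chow (replicate 1) and 4.38 on the first of week 30 high fat (replicate 1). Group means were 2.07 ± 0.07 (SD, n = 2) in week 0 chow, 1.79 ± 0.07 (n = 3) in week 6 chow, 2.02 ± 0.29 in week 6 high fat, 2.60 ± 1.32 in week 18 chow, 1.88 ± 0.25 in week 18 high fat, 1.81 ± 0.12 in week 30 chow and 2.65 ± 1.50 in week 30 high fat. The 2 groups with the largest SD are those of the 2 arrays that stand apart.

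None of the 10 comparisons of this difference passed an exact permutation test. The diet difference was 0.23 at week 6 (exact p = 0.2), -0.72 at week 18 (exact p = 0.6), 0.84 at week 30 (exact p = 0.6) and 0.12 on average (exact permutation p = 0.6008), two-sided, each with an adjusted p of 0.778 over the 10. With 3 arrays against 3, or 2 against 3, the smallest p these tests can give is 0.1, so a single comparison of 2 groups could not pass. Without week 18 chow replicate 1 the week 18 value was 0.044, and without week 30 high fat replicate 1 the week 30 value was -0.023.

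**Figure D3:**
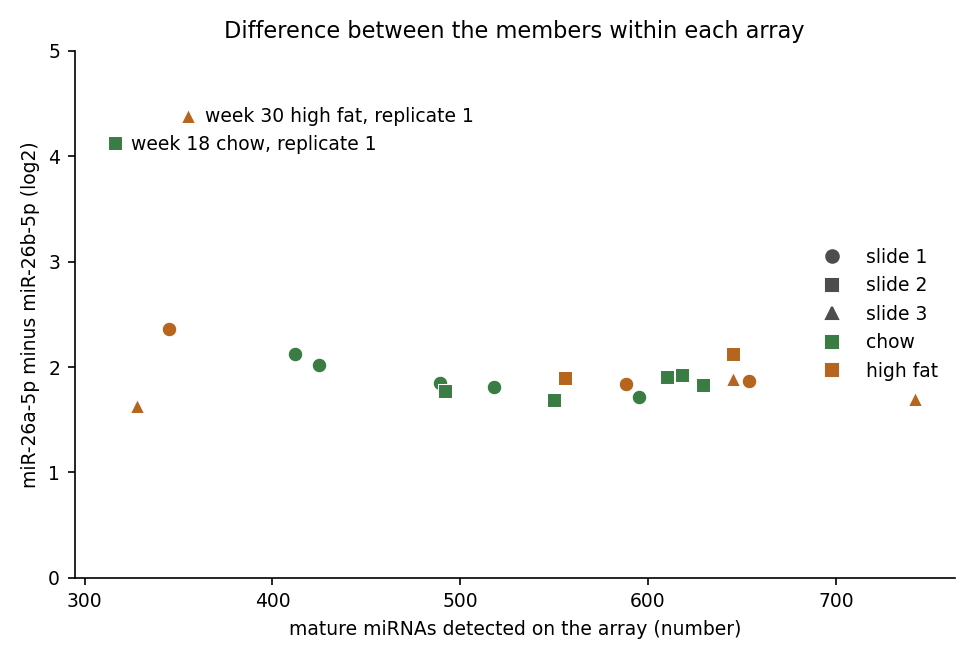
Difference between miR-26a-5p and miR-26b-5p on the log2 scale (vertical axis) against the number of miRNAs detected on that array (horizontal axis), 1 point per array, coloured by diet and shaped by slide. Week 18 chow replicate 1 (316 detected) and week 30 high fat replicate 1 (355 detected) lie at 4.12 and 4.38, and the other 18 arrays lie between 1.63 and 2.36.

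On these 2 arrays it was miR-26b-5p that departed from its group. Its level minus the mean of the other 2 arrays of its group was -2.18 on week 18 chow replicate 1 and -2.47 on week 30 high fat replicate 1, while that of miR-26a-5p was 0.10 and 0.13. Of the 192 miRNAs detected on every array, 7 and 8 had a more negative deviation than miR-26b-5p on the respective arrays. The arrays had the lowest scaling factors of the 20, 0.24 and 0.33, so their raw signal was the dimmest. The other 2 arrays with few detected miRNAs had differences of 1.63 and 2.36 between the members. These were the lowest and highest of the 18 arrays that remain without the 2 that stand apart.

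On both arrays, and on some others, the miRNAs with the longest probes had the lowest median deviation. Among miRNAs with a mean probe length of 19 bases or more, 24 of the 192 and including miR-26b-5p, the median deviation was -1.29 on week 18 chow replicate 1 and -1.43 on week 30 high fat replicate 1. Among the 29 miRNAs of 17 to under 19 bases it was -0.28 and 0.54, the latter the highest of that array. Among those of 15 to under 17 bases, 38 miRNAs including miR-26a-5p, it was 0.71 and 0.10. Under 15 bases, 101 miRNAs, it was 1.69 and 0.16. The medians were thus ordered by length on week 18 chow replicate 1 and not on week 30 high fat replicate 1. Across the 192 miRNAs the correlation of deviation with probe length was r = -0.62 and r = -0.25, a description over miRNAs of 1 array that share scaling and are not independent. On the other 18 arrays r ran from -0.47 to 0.62, and on 11 of them it was larger in size than the -0.25. These 18 are not an independent background, since arrays of a group enter one another's deviations. The group mates of the 2 arrays hold them in their reference. There r was 0.41 and 0.44 on week 18 chow replicates 2 and 3, and 0.40 and 0.074 on week 30 high fat replicates 2 and 3. Probe length was looked at after the values were seen, and after the base composition of the probes and miRNAs had been looked at. Its part in the result was not tested.

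**Figure D4:**
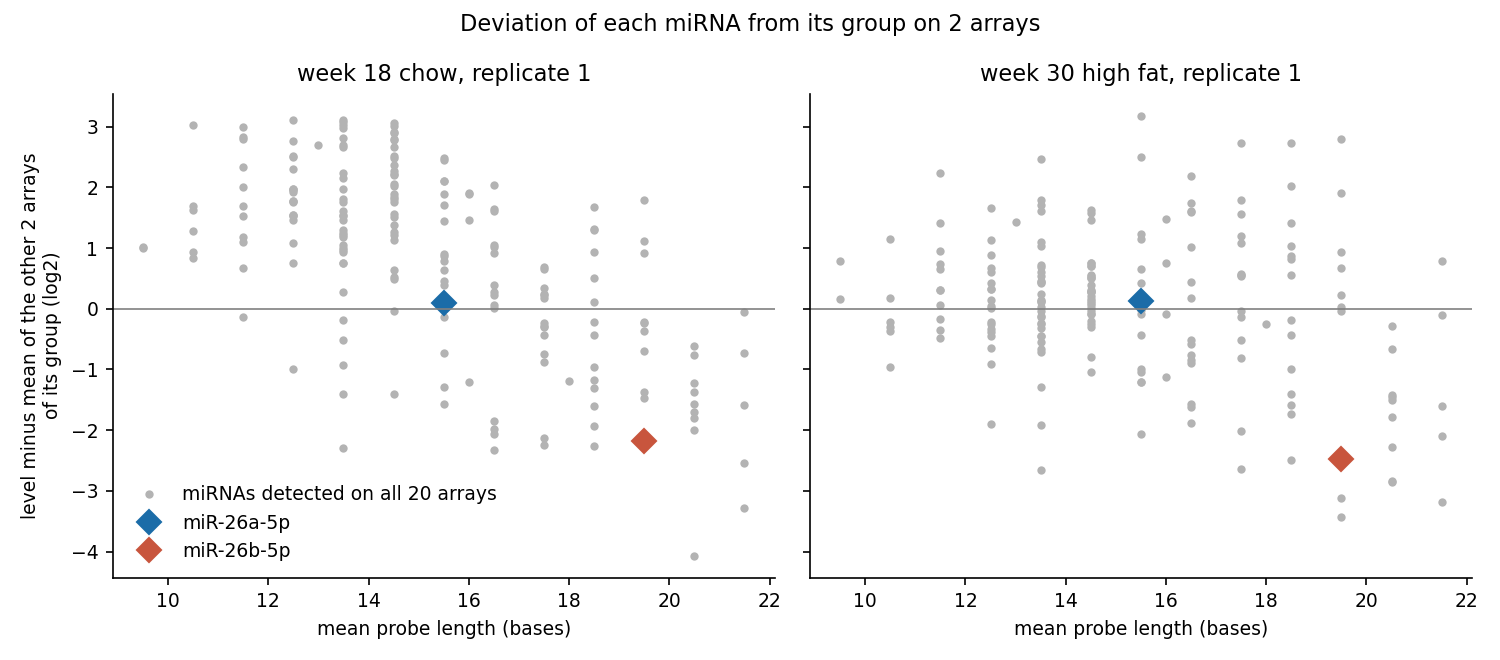
Deviation of each miRNA from the other 2 arrays of its group on the log2 scale (vertical axis) against its mean probe length in bases (horizontal axis), for replicate 1 of week 18 chow and replicate 1 of week 30 high fat. Grey points are the 192 miRNAs detected on every array, and diamonds are the members: miR-26b-5p lies at -2.18 and -2.47 and miR-26a-5p at 0.10 and 0.13.

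The 2 probes of each member followed one another. The longer miR-26a-5p probe exceeded the shorter by 0.76 to 0.91 on the log2 scale of unscaled intensity over the 20 arrays. For miR-26b-5p the longer exceeded the shorter by 0.53 to 1.04. On week 30 high fat replicate 1 the miR-26b-5p probes were at 3.81 and 4.85, the lowest of the 20 arrays, and on week 18 chow replicate 1 at 4.68 and 5.39. The miR-26a-5p probes were at 8.33 and 9.16 on the former and at 8.70 and 9.57 on the latter, also their lowest of the 20 arrays. Before scaling both members were therefore low on these arrays.

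The minor arms of the same hairpins were not detected on any array. These are miR-26a-1-3p, miR-26a-2-3p and miR-26b-3p, the strands usually degraded after processing, and each was detected on 0 of 20 arrays and so was not tested. Their scaled levels were at the floor of 2.87 for miR-26a-1-3p on every array, and reached at most 3.87 for miR-26a-2-3p and 4.32 for miR-26b-3p.

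Across arrays Pearson's r between the members was 0.53 (Spearman 0.81, n = 20), as a description over arrays that share scaling and slides. Without the 2 arrays with the largest difference between the members it was 0.93 (Spearman 0.93, n = 18). Those arrays were picked by that difference, so the higher r partly follows from the choice. The 5 miRNAs most like the mean of the members over 20 arrays, of 190 compared, were miR-30b-5p (r = 0.94), let-7g-5p (0.94), let-7f-5p (0.93), miR-195a-5p (0.93) and miR-21a-5p (0.92), against a median r of -0.36. miR-30b-5p is a member of the miR-30 family, miR-195a-5p of the miR-15/16 family, and miR-21a-5p is a miRNA known to rise in injured vessels. Of these, let-7f-5p was alike to each member singly (r = 0.85 and 0.82), whereas miR-30b-5p was at 0.56 with miR-26a-5p and 0.98 with miR-26b-5p. Without the 2 arrays with the largest difference between the members, the 5 had r of 0.81 to 0.93 and ranks of 2 to 16.

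**Figure D5:**
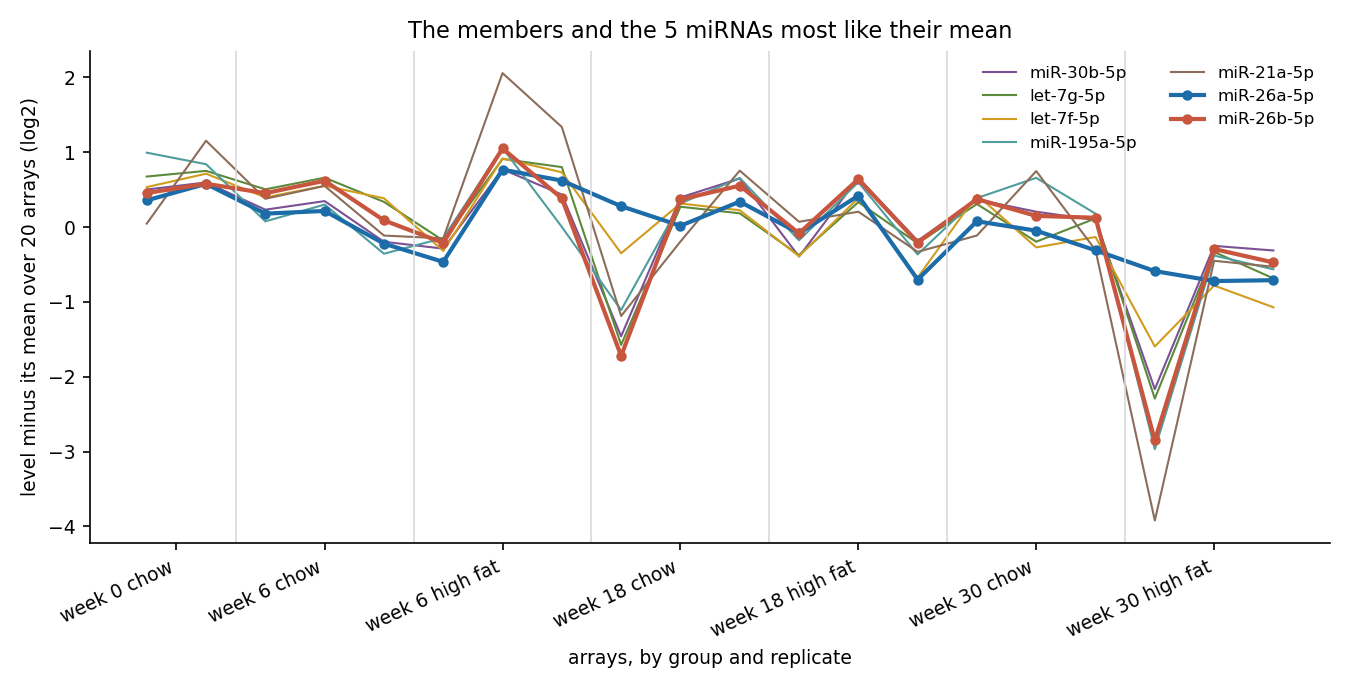
Log2 level minus its own mean over 20 arrays (vertical axis) for miR-26a-5p, miR-26b-5p and the 5 miRNAs most like their mean, with arrays in order of group and replicate; lines join arrays only to guide the eye. miR-26b-5p is lower on replicate 1 of week 18 chow and of week 30 high fat, as are the 5 others, and on the former miR-26a-5p is not.

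Lists of miRNAs with related roles were set beside the members, as counts and medians and without a test of the list. Of 16 miRNAs that MYC is known to lower along with miR-26, all were tested, and at week 30 all 16 had a negative sign in high fat against chow with a median of -1.04, against -0.14 over all 609. None passed, and 0% of all miRNAs did. The 3 with the smallest p were miR-195a-5p (-1.71 ± 0.61, limma adjusted p = 0.185), miR-15a-5p (-1.78 ± 0.78, adjusted p = 0.269) and let-7g-5p (-1.18 ± 0.54, adjusted p = 0.279). Without the 4 arrays with the fewest detected miRNAs all 16 kept a negative sign, with a median of -0.63, against -0.12 over all 609. Week 30 high fat is then replicates 2 and 3 alone, a near-identical pair (SD 0.18) on slide 3, so this is not an independent check. At week 6 the list had 10 positive and 6 negative differences and at week 18 it had 9 and 7.

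The let-7 family, which shares several members with that list, had 11 of 11 negative at week 30 with a median of -0.76, and the miR-30 family 4 of 5 with a median of -0.61. Neither had a member that passed at that week. let-7f-5p was at -1.16 ± 0.42 (limma adjusted p = 0.189) and miR-30b-5p at -1.13 ± 0.57 (adjusted p = 0.292). In the chow steps, let-7k and let-7j passed from week 0 to 6, at 3.22 and 2.50 (limma adjusted p = 0.0142 and 0.0237). They passed in the other direction from week 6 to 18, at -2.43 and -2.75 (limma adjusted p = 0.024 and 0.00668). Each was detected on 1 of the 2 week 0 arrays. Both steps use replicates 1 and 2 of week 6 chow, a near-identical pair (SD 0.28) counted here as separate arrays. These dim let-7 entries were the only members of the role and family lists that passed in any comparison. Close let-7 relatives can take up one another's signal. Of the cell markers, 1 epithelial and 1 striated muscle marker passed from week 0 to 6, both higher, where 132 of 609 miRNAs (21.7%) passed. From week 6 to 18, 2 leukocyte markers passed, both lower, where 97 miRNAs (15.9%) passed.

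Of 5 miRNAs known to lower EZH2, the methyltransferase that miR-26a also lowers, 3 were tested and none passed. At week 30 miR-101a-3p was at -1.84 ± 0.95 (limma adjusted p = 0.295), miR-214-3p at 0.63 ± 0.65 (adjusted p = 0.5) and miR-138-5p at 0.48 ± 0.60 (adjusted p = 0.578). Of 9 miRNAs of smooth muscle phenotype, 8 were tested and none passed in any comparison. miR-145a-5p, which promotes the contractile state, was at 0.66 ± 0.36 at week 30 (adjusted p = 0.296), and miR-21a-5p at -1.74 ± 0.78 (adjusted p = 0.272).

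Most, but not all, marker sets had mainly negative signs at week 30, as the members did. High fat minus chow was negative for 4 of 4 leukocyte markers (median -1.23), 2 of 2 red cell markers (median -1.52) and 2 of 2 endothelial markers (median -1.26). It was also negative for 6 of 6 epithelial markers (median -1.67) and 2 of 3 striated muscle markers (median -0.23). The smooth muscle markers had 1 positive and 1 negative sign (median 0.14), and the liver marker was at 0.015. None of these markers passed, and the median over all tested miRNAs was -0.14. In week 30 high fat miR-142a-5p was detected on 1 of 3 arrays, and miR-142a-3p, miR-144-3p and miR-126a-5p on 2. Their lowest level was 2.87, the floor, except for miR-142a-3p (3.06). On replicate 1 of that group, miR-126a-3p and miR-451a deviated from the other 2 arrays by -1.73 and -1.60. There miR-223-3p deviated by -0.29 and miR-150-5p by 3.18. High fat and chow arrays of week 30 lay on different slides, so diet and slide cannot be told apart here. The summed log2 level of the leukocyte markers ran from 7.62 to 8.78 in week 30 high fat and from 8.62 to 9.05 in week 30 chow, that of the red cell markers from 9.21 to 10.95 and from 10.88 to 12.22, and that of the endothelial markers from 9.32 to 11.15 and from 10.85 to 11.93. Only the summed epithelial level did not overlap between these groups, at 5.98 to 6.15 in high fat and 6.79 to 10.32 in chow. In high fat miR-141-3p, miR-200b-3p and miR-200c-3p were at the floor of 2.87 on every array and miR-200a-3p at 2.87 to 2.88. In chow miR-141-3p ran from 2.87 to 7.93. Of single miRNAs, 156 of 609, 25.6%, did not overlap in this direction. The smooth muscle markers were at 10.33 to 11.24 and 10.81 to 10.98 and those of striated muscle at 10.68 to 12.05 and 10.64 to 11.44. The part of these cells in the miR-26 levels was not tested, and in whole tissue fewer cells of a type and less of the miRNA per cell cannot be told apart.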

How the data were processed

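Total RNA, extracted with TRIZOL per the labels' protocols, was hybridised in 1 colour (Cy3) to 20 Agilent mouse miRNA arrays. The authors deposited each array's scanner output from Agilent Feature Extraction 11.5.1 (version per the submitters' processing notes), and its processed intensity, linear and background-subtracted per the file headers, was used. The deposited value table held the same intensity on all 20 arrays, and 0 of its columns were left unmapped. Probe positions are in mm9, per the file headers.

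Control and outlier spots were left out, and a miRNA's value was the mean of its probes, each the mean of its spots. Detection needed a share of at least 0.5 of the spots kept for 1 probe to be well above background. Each array was scaled by its 75th percentile over 192 miRNAs (those detected on all arrays), a floor was set, and log2 was taken. Testing covered 609 miRNAs, each found on all arrays of some group, and was done in R 4.3.3 with limma 3.58.1 (linear models with moderated variances; 7 groups, 13 residual degrees of freedom, two-sided, Benjamini-Hochberg adjustment at 0.05), after a check on simulated data. Single values had exact permutation tests over arrays (Python 3.11.15). Slide and replicate number were alternatives, not covariates. The number of arrays limits the precision.

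The floor is the 75th percentile over arrays of the lowest detected signal, 2.87 on the log2 scale. This rule was not set in advance: several floors were tried, and it was chosen after the counts of calls under them were seen, because its counts lay nearest those of an earlier analysis of these data. At week 6 the diet comparison had 18 calls with it, 9 with the median over arrays (2.51) and 46 with the highest (4.86). The members lie at 6.03 or above, so no floor touches their levels, but the percentages of miRNAs called and the adjusted p-values depend on it.

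The members, the lists and the rule for named miRNAs (both members, the 3 minor arms, the 5 most alike, and up to 3 per list with the smallest p) were chosen with earlier results of these data known. The 2 arrays with a large difference between the members, the slide 3 pattern and the groups without overlap were singled out after their values were seen.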

Additional observations from a re-analysis of the deposited data

How the results depend on the processing

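Apart from leaving out single arrays, 408 values were computed under alternative settings for the members and their difference: 383 kept their sign and side of the threshold, 1 passed the threshold and 24 changed sign with neither value past it. With the 75th percentile over all miRNAs, miR-26a-5p from week 0 to 6 on chow passed at -1.86 (limma adjusted p = 0.0423; 0.187 to 0.946 under its other settings, single arrays left out included), and miR-26b-5p turned to -0.12 for diet at week 18 and 0.013 on chow from week 6 to 18. With no scaling, miR-26a-5p turned to 0.69 for diet at week 18, 0.60 on chow from week 18 to 30 and 0.36 on high fat from week 6 to 18, where miR-26b-5p turned to 0.50. With the median over spots, miR-26a-5p turned to 0.021 for diet at week 18, the step from week 0 to week 6 on high fat turned to 0.083 and 0.13 for the members, and their difference turned to 0.32 from week 6 to 18 on high fat. With slide as a block, miR-26a-5p turned to 0.29 for diet at week 30, 0.17 for the mean diet difference and 0.029 from week 18 to 30 on high fat, the last also within slide 3 alone (0.029). Slide 1 holds only weeks 0 and 6, so the block could not be fitted for steps from week 6 to 18. By described slide position, miR-26b-5p turned to -0.71 for diet at week 18 and -0.064 on chow from week 18 to 30. Without the 4 arrays with the fewest detected miRNAs, chosen after seeing the data, miR-26b-5p turned to -0.18 for diet at week 18 and to 0.074 and -0.25 on chow from week 6 to 18 and 18 to 30, miR-26a-5p to 0.017 on high fat from week 6 to 18, and their difference to 0.17 and -0.023 for diet at weeks 18 and 30 and to 0.16 and -0.22 on high fat from week 6 to 18 and 18 to 30. The causes of these changes were not tested.

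Of 246 values that each leave out 1 array, 17 changed sign and none passed the threshold. The 2-group values of the difference between the members could not have passed here either. For miR-26b-5p the ranges were -0.30 to 0.33 and -0.34 to 0.79 for diet at weeks 6 and 18, -0.25 to 0.019, -1.06 to 0.074 and -0.25 to 0.89 for the chow steps in order, and -0.43 to 0.20 and -0.60 to 0.030 for the first high fat steps. For miR-26a-5p from week 0 to 6 on high fat the range was -0.39 to 0.23. Ranges that kept their sign were, for miR-26a-5p, 0.020 to 0.64, -0.60 to -0.044 and -0.69 to -0.49 for diet at weeks 6, 18 and 30, -0.31 to -0.092 for the mean, -0.52 to -0.27, 0.014 to 0.25 and -0.40 to -0.20 for the chow steps, and -0.82 to -0.14 and -0.84 to -0.28 for the later high fat steps. For miR-26b-5p they were -1.88 to -0.60 for diet at week 30, -0.58 to -0.065 for the mean and -1.78 to -0.50 for the last high fat step. For the difference between the members it was -1.13 to 0.044 and -0.023 to 1.32 for diet at weeks 18 and 30, -0.17 to 0.37 for the mean diet difference, and -0.22 to 0.042, -0.26 to 0.030 and -0.094 to 1.25 for the high fat steps in order.

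Same-numbered arrays of different groups had a median correlation of 0.065, with 28 of 57 pairs over 0.1. For arrays with other numbers it was -0.013, with 45 of 114 pairs over 0.1. Whether replicate numbers pair the samples was not tested. With the replicate block miR-26b-5p at week 30 kept -1.42 (limma adjusted p = 0.169), no member passed, and the chow calls from week 0 to 6 were 141 against 132 without it. Counts over all miRNAs moved more than those of the members: the diet comparison at week 6 had 18 calls, and 2 with normexp background correction, 3 with no scaling, 6 with near-identical arrays averaged, 7 with quantile normalization, 8 with the percentile over all miRNAs, and 9 and 46 with the median and highest floor, the floors being added after seeing the data. From week 0 to 6 on chow 132 fell to 1 with no scaling and 11 with near-identical arrays averaged, and from week 6 to 18, 97 fell to 5 and 33. With the highest floor, 10 miRNAs were called for diet at week 30 and 30 for the mean diet difference, against 0.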
